A study of Mus musculus with 6 samples.

Results

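Resident-type arterial macrophage markers are genes known, in healthy mouse arteries, from long-lived tissue macrophages of the vessel wall. Not all are specific to them, and some are shared with other cells, monocytes among them. The set holds 9 genes of the 41388 listed in each deposited table: Lyve1, Mrc1, Cd209f, Cd163, Vsig4, Folr2, Pf4, F13a1 and Cbr2. They were taken by symbol and matched to the Ensembl identifiers in the tables. RNA was measured in foamy and non-foamy macrophages sorted from the aortic intima of ApoE-/- mice on the C57BL/6 background, which lack apolipoprotein E and develop plaques. Foamy macrophages were live CD64+CD11b+ cells high in BODIPY, a dye of neutral lipid, and high in side scatter. Non-foamy macrophages were live CD64+CD11b+ cells low in both. Both groups shared the ApoE deletion and, per the series design, a Western diet for 28 weeks, with 6 mice in the study and 3 libraries in each group. The mice's ages, and how they were divided or pooled among the libraries, are not stated in the labels. Tests therefore measure the spread between libraries, which may be technical.

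Tissue-resident macrophages clear debris, haemoglobin and complement-coated particles through surface receptors. A subset around vessels is known by the hyaluronan receptor LYVE-1 and the folate receptor FOLR2, and lies mostly in the adventitia, the outer layer that was stripped from these aortas before the main digestion. Some of the markers are shared: in mice, F13a1 is also transcribed in classical monocytes, Pf4 in megakaryocytes, Lyve1 in lymphatic endothelium, and Mrc1 in dendritic cells and alternatively activated macrophages.

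Library totals ran from 18592421 to 24279802 counts in foamy samples and between 15628627 and 24619075 in non-foamy samples. General macrophage genes were present throughout: the summed CPM (each count scaled to a common total of counts in genes) of 12 of them was 54595 to 59315 in foamy and 36532 to 46353 in non-foamy libraries. Without the lysozyme gene Lyz2, the most abundant of them, the sums overlapped, at 23879 to 28655 CPM in foamy samples and 23824 to 30080 CPM in non-foamy samples. Of the 12, 4 were called lower, Csf1r (log2 fold change -1.28, edgeR adjusted p = 0.0043), Cd14 (-0.93), Itgam (-0.87) and Adgre1 (-0.83), and 3 higher, Lyz2 (1.26), Cd68 (0.97) and Mertk (1.37). Without non-foamy replicate 2, 1 was called lower and 3 higher. The gate gene Itgam, which encodes CD11b, stood at 61.0 to 82.9 CPM in foamy libraries, against 150 to 160 CPM in the non-foamy ones. Fcgr1, which encodes CD64, stood at 178 to 245 CPM in foamy libraries, against 152 to 242 CPM in the non-foamy ones. Apoe, the targeted gene, gave 3.46 to 6.78 CPM in foamy libraries, against 2.68 to 6.85 CPM in the non-foamy ones, and no library without the deletion was analysed here.

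Most of the resident-type markers were lower in foamy macrophages. Of the 9 genes, 6 were called lower and none higher by edgeR's quasi-likelihood test at a Benjamini-Hochberg adjusted p of 0.05. Among all 11303 genes tested, 5.41% were called, 2.90% lower and 2.50% higher. The markers were chosen with earlier results of these data known, so these shares give scale and are not a test of the set. The genes that fell were Cd163, Lyve1, F13a1, Cbr2, Mrc1 and Pf4. Folr2 and Vsig4 were tested and not called, and Cd209f had too few counts in most libraries to be tested. In 7 of the 9 genes all 3 foamy values lay below all 3 non-foamy values, against 21.3% of the genes tested, and in none did all foamy values lie above, against 6.68%. Without non-foamy replicate 2, 5 of the 9 were called lower, all but Pf4 of the 6, against 1.58% of the genes tested. The 8 tested genes include 3, Lyve1, Cd163 and Vsig4, with fewer than 10 counts in at least 1 foamy library, so that their entry into the test rested on the non-foamy libraries. In bulk RNA, fewer cells of a type and less RNA per cell cannot be told apart.

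**Figure D1:**
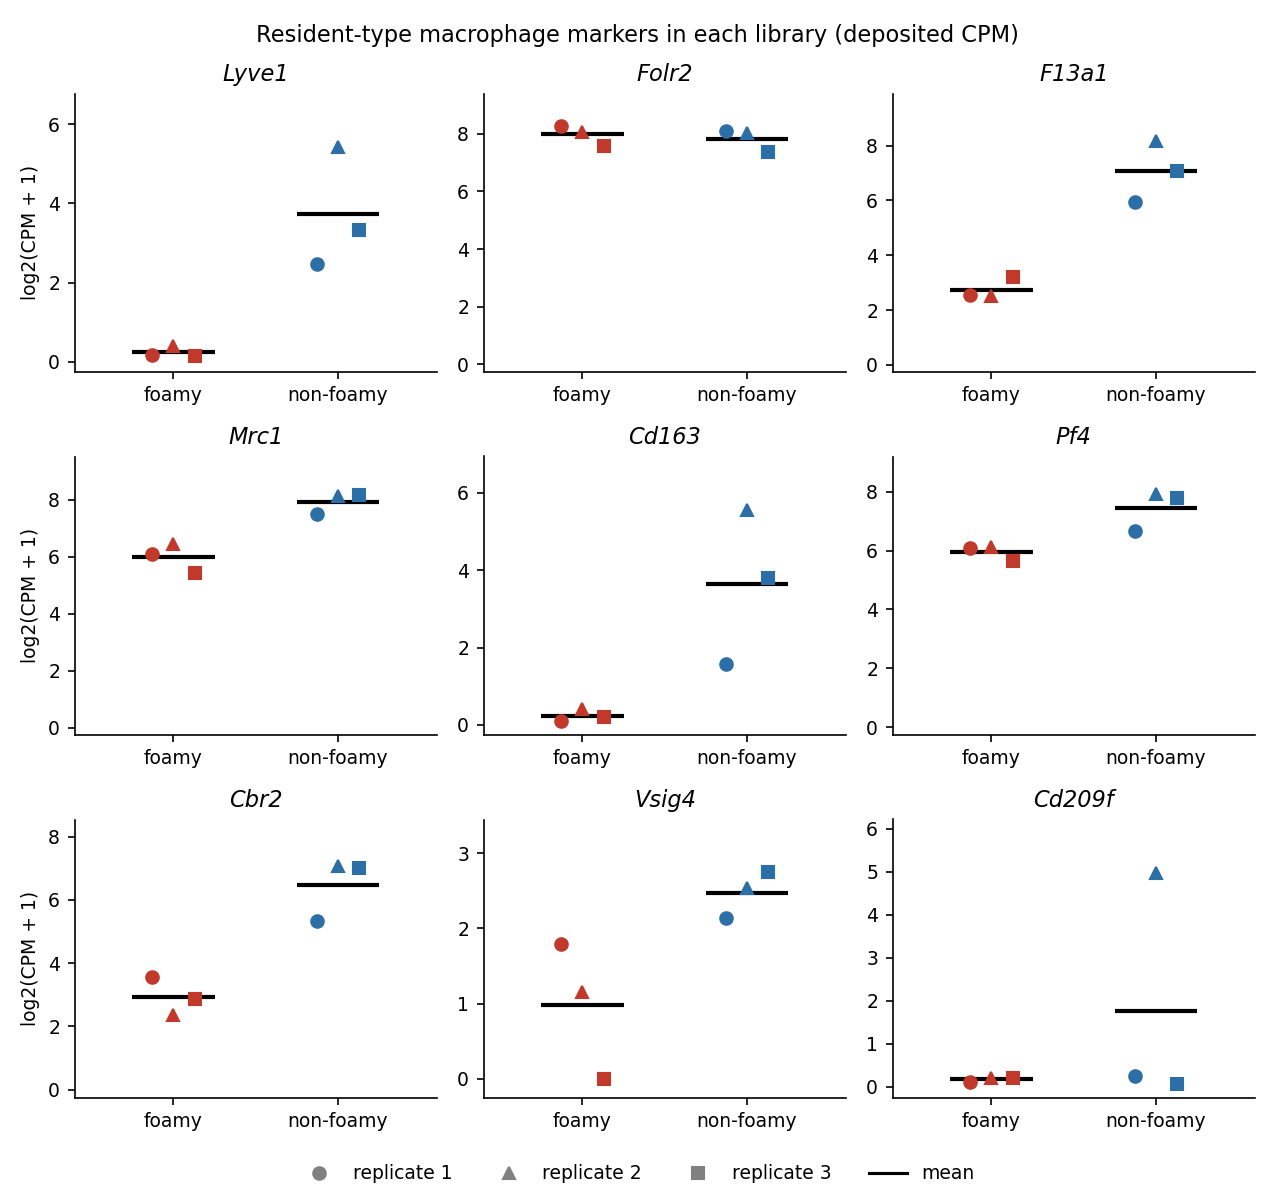
Each panel plots 1 of the 9 genes as log2(CPM + 1) from the deposited CPM, with foamy libraries on the left, non-foamy on the right, a symbol for each replicate number and a bar at the mean of the plotted values (n = 3). Foamy and non-foamy points overlap for Folr2 and Cd209f and are apart in the other 7 panels, and non-foamy replicate 2 is the highest point for Lyve1, Cd163, F13a1, Pf4, Cbr2 and Cd209f.

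Among the receptors for sugars, Lyve1 (ENSMUSG00000030787, GRCm38 chromosome 7, 110850607 to 110862953) encodes the hyaluronan receptor LYVE-1. It had 3, 6 and 2 counts in foamy replicates 1 to 3, equal to 0.124, 0.323 and 0.0969 CPM, and 71, 704 and 221 counts, or 4.54, 41.7 and 8.98 CPM, in non-foamy replicates 1 to 3. Foamy macrophages were thus near the counting limit in every library, while the non-foamy libraries differed among themselves by up to 9.19 times (exact 95% counting interval 7.19 to 11.9). The log2 fold change, foamy over non-foamy, was -6.42 (SE 0.99, edgeR adjusted p = 0.0035). It was -4.97 without non-foamy replicate 2 (edgeR adjusted p = 0.023), and with limma-voom it was not called (-5.74, adjusted p = 0.17).

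Mrc1 (ENSMUSG00000026712, chromosome 2, 14229414 to 14332057) encodes the macrophage mannose receptor CD206, a lectin that takes up glycoproteins. It stood at 67.5, 86.8 and 41.9 CPM in foamy replicates 1 to 3 and at 179, 280 and 286 CPM in non-foamy replicates 1 to 3. Mrc1 was well expressed in both groups, and its groups did not overlap. The log2 fold change was -1.68 (SE 0.29, edgeR adjusted p = 0.0070), between -1.93 and -1.44 over the 16 alternatives tried, and it was called in all of them. The deposited tables place the microRNA gene Mir511 inside Mrc1.

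Cd209f (ENSMUSG00000051906, chromosome 8, 4102787 to 4105835) encodes a C-type lectin of the DC-SIGN family. Its reads came almost wholly from non-foamy replicate 2. It had 2, 3 and 3 counts in foamy replicates 1 to 3, against 3, 507 and 1 in the non-foamy replicates, or 30.1 CPM in non-foamy replicate 2 and at most 0.192 CPM in any other library. No difference between the groups was detectable. Without a filter on low counts the fitted log2 fold change was -5.95 (edgeR adjusted p = 0.35). The log2 ratio of mean deposited CPM, foamy over non-foamy, was -6.28 over 6 libraries and 0.16 without non-foamy replicate 2.

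Most neighbouring genes of this lectin family on chromosome 8 that were detected had the same pattern. Cd209g had 0, 0 and 1 counts in the foamy replicates, against 1, 233 and 1 counts in the non-foamy replicates. Cd209b had 0, 2 and 1 in the foamy replicates, against 5, 149 and 2 counts in the non-foamy replicates, and Cd209d 0, 1 and 4 in the foamy replicates, against 0, 125 and 0 counts in the non-foamy replicates. All of these were high in non-foamy replicate 2 only, among the 6 libraries. Cd209a did not follow: it stood at 0.165, 14.0 and 0.291 CPM in the foamy replicates, against 210, 268 and 33.2 CPM in the non-foamy replicates, and was not called (log2 fold change -4.95, SE 1.93, edgeR adjusted p = 0.28). Cd209c and Cd209e had at most 1 count in any library. Of the windows of 50 bases, the read length, in Cd209f transcripts of GENCODE M21, 29.8% also occur in Cd209g, and how reads that map to several genes were counted is not stated in the labels. The split between Cd209f and Cd209g is therefore uncertain.

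Among the scavenger and complement receptors, Cd163 (ENSMUSG00000008845, chromosome 6, 124304651 to 124330527) encodes the receptor for haptoglobin-bound haemoglobin. It had 2, 6 and 3 counts in foamy replicates 1 to 3, or 0.0824, 0.323 and 0.145 CPM, and 31, 770 and 316 counts, or 1.98, 45.7 and 12.8 CPM, in non-foamy replicates 1 to 3. Its non-foamy libraries differed by up to 23.0 times (exact 95% counting interval 16.1 to 34.1), a wider range than that of Lyve1, in the same order of replicates. The log2 fold change was -6.56 (SE 1.13, edgeR adjusted p = 0.0066). It was -5.13 without non-foamy replicate 2 (edgeR adjusted p = 0.034), and limma-voom did not call it (-5.64, adjusted p = 0.28).

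Vsig4 (ENSMUSG00000044206, chromosome X, 96247203 to 96293438) encodes CRIg, a receptor for complement C3 fragments that is best known from Kupffer cells of the liver. It was low throughout, with 2.47, 1.24 and 0 CPM in foamy replicates 1 to 3 and 3.39, 4.80 and 5.73 CPM in non-foamy replicates 1 to 3. The count of 0 in foamy replicate 3 allows a level of up to 0.145 CPM. The groups did not overlap, but edgeR's test did not call the difference (log2 fold change of -1.63 with SE 1.15, edgeR adjusted p = 0.51), and no difference was detectable at this depth. The value was -2.73 without foamy replicate 1, -1.05 without foamy replicate 3 and -3.13 with limma-voom, and it was called under none of the 15 alternatives that could test it.

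Folr2 (ENSMUSG00000032725, chromosome 7, 101839990 to 101845331) encodes folate receptor beta and is often used beside Lyve1 as a marker of perivascular macrophages. It stood at 310, 269 and 189 CPM in foamy replicates 1 to 3 and at 269, 258 and 165 CPM in non-foamy replicates 1 to 3. The groups overlapped and every library held many reads of it, with 3901 to 7528 counts in foamy samples and 4071 to 4349 in non-foamy samples. Its log2 fold change was 0.43 (SE 0.23, edgeR adjusted p = 0.37) and ran from 0.15 to 0.61 over the 16 alternatives, none of which called it. The gene Gm10602, which does not overlap Folr2 in the deposited tables, shares 52.6% of the 50-base windows of Folr2 transcripts and had 0 to 15 counts in the 6 libraries. The lower end of the range was the value with total counts as the only scaling, which moved the median of all tested genes to -0.31, against -0.04 with TMM factors.

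Of the secreted proteins, Pf4 (ENSMUSG00000029373, chromosome 5, 90772435 to 90773381) encodes the chemokine CXCL4, platelet factor 4. It stood at 67.7, 68.2 and 49.0 CPM in foamy replicates 1 to 3 and at 99.4, 243 and 218 CPM in non-foamy replicates 1 to 3. The groups did not overlap, with non-foamy replicate 1 nearest to the foamy libraries. The log2 fold change was -1.36 (SE 0.33, edgeR adjusted p = 0.037). The call was lost under 8 of 16 alternatives, among them leaving out any 1 foamy library (-1.47, -1.38 and -1.22 for replicates 1 to 3) or non-foamy replicate 2 (-1.12) or 3 (-1.18). It was also lost with the replicate number as a block (-1.26, edgeR adjusted p = 0.092). Without non-foamy replicate 1 it was -1.69 and called.

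F13a1 (ENSMUSG00000039109, chromosome 13, 36867178 to 37050244) encodes the A subunit of coagulation factor XIII, a transglutaminase that cross-links fibrin. It stood at 4.82, 4.68 and 8.14 CPM in foamy replicates 1 to 3 and at 61.1, 286 and 135 CPM in non-foamy replicates 1 to 3. Even the lowest non-foamy library was well above the highest foamy one. The log2 fold change was -4.52 (SE 0.54, edgeR adjusted p = 7.4e-04), or -3.81 without non-foamy replicate 2, and it was called under all 16 alternatives.

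Cbr2 (ENSMUSG00000025150, chromosome 11, 120729489 to 120732114) encodes a carbonyl reductase, first known from mouse lung. It stood at 10.9, 4.14 and 6.25 CPM in foamy replicates 1 to 3 and at 39.5, 132 and 127 CPM in non-foamy replicates 1 to 3. Non-foamy replicates 2 and 3 lay close together and replicate 1 below them, still above every foamy library. The log2 fold change was -3.55 (SE 0.53, edgeR adjusted p = 0.0030), from -4.04 to -3.24 over the 16 alternatives, and it was called in all of them. The pseudogene Gm11771 shares 12.1% of the 50-base windows of Cbr2 and had 0 to 3 counts in the 6 libraries.

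**Figure D2:**
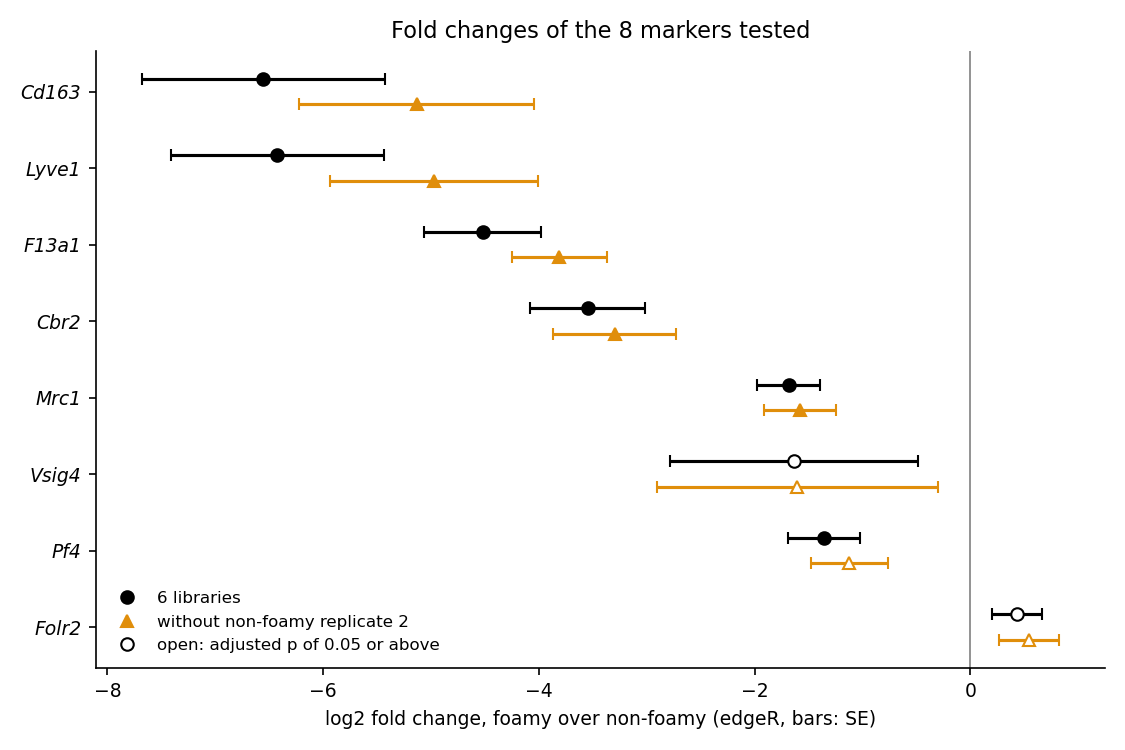
The x axis gives the log2 fold change, foamy over non-foamy, with its SE for the 8 genes tested, from all 6 libraries (black circles) and without non-foamy replicate 2 (orange triangles), and open symbols mark an edgeR adjusted p of 0.05 or above. Cd163 and Lyve1 move to -5.13 and -4.97 without that library, Pf4 becomes open at -1.12, and Folr2 stays to the right of 0.

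Scaled for transcript length, the order of the markers by mean differed between the groups, but several neighbours lay within their spread of each other. In foamy macrophages Folr2 led at 237 ± 57.1 RPKM (CPM per kilobase of the listed length, mean ± SD, n = 3), followed by Pf4 at 105 ± 18.6, Mrc1 at 11.0 ± 3.79 and Cbr2 at 5.35 ± 2.61 RPKM. F13a1 came next, then Vsig4 at 0.833 ± 0.833 RPKM, with Cd209f, Lyve1 and Cd163 at 0.0849 RPKM or less. Among these, Vsig4 lay within its own spread of F13a1, and Lyve1 within its spread of both Cd209f and Cd163.

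In non-foamy macrophages Pf4 stood at 319 ± 131 RPKM and Folr2 at 214 ± 52.9 RPKM (n = 3), which were within their spread of each other. Cbr2 at 75.2 ± 39.4, Mrc1 at 41.7 ± 10.1 and F13a1 at 40.9 ± 29.2 RPKM also overlapped in their spread. Lyve1 at 7.07 ± 7.80, Cd209f at 6.61 ± 11.3, Cd163 at 4.49 ± 5.06 and Vsig4 at 3.13 ± 0.793 RPKM could not be ordered. For Lyve1, Cd209f and Cd163 the SD exceeded the mean.

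Start-site sequences were read for 8 of the 9 genes from RefSeq windows on GRCm38.p6 that run from 250 bases before to 50 after an annotated start. Those of 4 genes are shown because they span the range of responses: F13a1 and Cbr2, called under every alternative, Cd163, which was near the counting limit in foamy cells, and Folr2, which did not change detectably. Each is the window nearest to the start in the deposited tables. Capitals mark matches, on either strand, to GAGGAA, the core of sites for the macrophage factor PU.1, to TGCTGA, a part of the MAF recognition element, and to TGANTCA, the AP-1 site.
F13a1, chr13:37050195-37050494, minus strand: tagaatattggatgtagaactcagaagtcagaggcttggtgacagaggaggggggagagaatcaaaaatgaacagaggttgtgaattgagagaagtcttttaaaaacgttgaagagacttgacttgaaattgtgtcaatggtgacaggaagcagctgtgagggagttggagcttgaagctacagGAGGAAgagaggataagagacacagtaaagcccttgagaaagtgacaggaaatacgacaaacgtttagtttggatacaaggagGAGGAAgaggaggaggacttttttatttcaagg
Cbr2, chr11:120731972-120732271, minus strand: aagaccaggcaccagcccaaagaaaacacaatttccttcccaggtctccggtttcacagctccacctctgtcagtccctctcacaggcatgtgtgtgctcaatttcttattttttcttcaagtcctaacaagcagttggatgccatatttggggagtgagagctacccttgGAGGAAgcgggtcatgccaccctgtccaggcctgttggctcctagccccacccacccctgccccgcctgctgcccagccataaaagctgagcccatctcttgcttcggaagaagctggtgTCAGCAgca
Cd163, chr6:124304401-124304700, plus strand: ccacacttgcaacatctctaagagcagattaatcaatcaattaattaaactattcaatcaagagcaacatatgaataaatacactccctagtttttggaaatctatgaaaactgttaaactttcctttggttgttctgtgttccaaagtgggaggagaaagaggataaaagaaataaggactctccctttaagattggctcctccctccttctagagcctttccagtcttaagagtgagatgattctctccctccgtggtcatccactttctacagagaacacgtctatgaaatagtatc
Folr2, chr7:101845282-101845581, minus strand: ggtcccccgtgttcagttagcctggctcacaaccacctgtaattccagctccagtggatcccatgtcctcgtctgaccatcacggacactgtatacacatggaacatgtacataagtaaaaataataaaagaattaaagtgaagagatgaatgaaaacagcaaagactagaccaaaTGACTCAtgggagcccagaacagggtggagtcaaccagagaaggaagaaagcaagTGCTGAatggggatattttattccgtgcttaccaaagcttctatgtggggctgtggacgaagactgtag

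The PU.1 core was found in 6 of 10 windows of the 8 genes, against 28.3% of the 32851 windows of this length in the RefSeq table. The MAF letters were found in 4 of 10 windows, against 19.5% of all windows, and the AP-1 letters in 2 of 10, those of Folr2 and Cd209f, against 7.81% of all windows. No matches overlapped each other. The window of Cd163 held none of the 3 motifs, and both Folr2 windows held the MAF letters. These are matches of letters and not measured sites.

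The spread among the non-foamy libraries was the other feature of these genes. Non-foamy replicate 1 was the lowest of the 3 in 7 of the 9 genes, against 28.7% of all genes tested, and replicate 2 the highest in 6 of 9, against 28.1%. Replicate 2 exceeded replicate 1 more than 2-fold in 6 genes, Lyve1, F13a1, Cd163, Pf4, Cbr2 and Cd209f, where 11.3% of genes tested did so. It exceeded replicate 3 more than 2-fold in 4, Lyve1, F13a1, Cd163 and Cd209f, where 16.0% of genes tested did so. A range of more than 2-fold among the 3 libraries was itself common, at 49.4% of genes tested and 6 of the 9 markers.

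On the log2(CPM + 1) scale with TMM factors, the SD over the 3 non-foamy libraries was 2.02 for Cd163, 1.55 for Lyve1, 1.17 for F13a1, 1.07 for Cbr2 and 0.79 for Pf4. Each was above that of at least 98.8% of tested genes with a similar non-foamy mean. For Mrc1 the SD was 0.48, for Folr2 0.31 and for Vsig4 0.39, above 87.6%, 67.0% and 24.4% of such genes. Among the foamy libraries the SD was above 95.1% of tested genes with a similar foamy mean for Mrc1, 93.5% for Folr2, 91.7% for Vsig4, 85.9% for Cbr2, 62.5% for Pf4 and 47.8% for F13a1. For Lyve1 and Cd163 it was above 14.5% and 15.3%, at 2 to 6 counts a library, where the added 1 CPM compresses the scale.

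**Figure D3:**
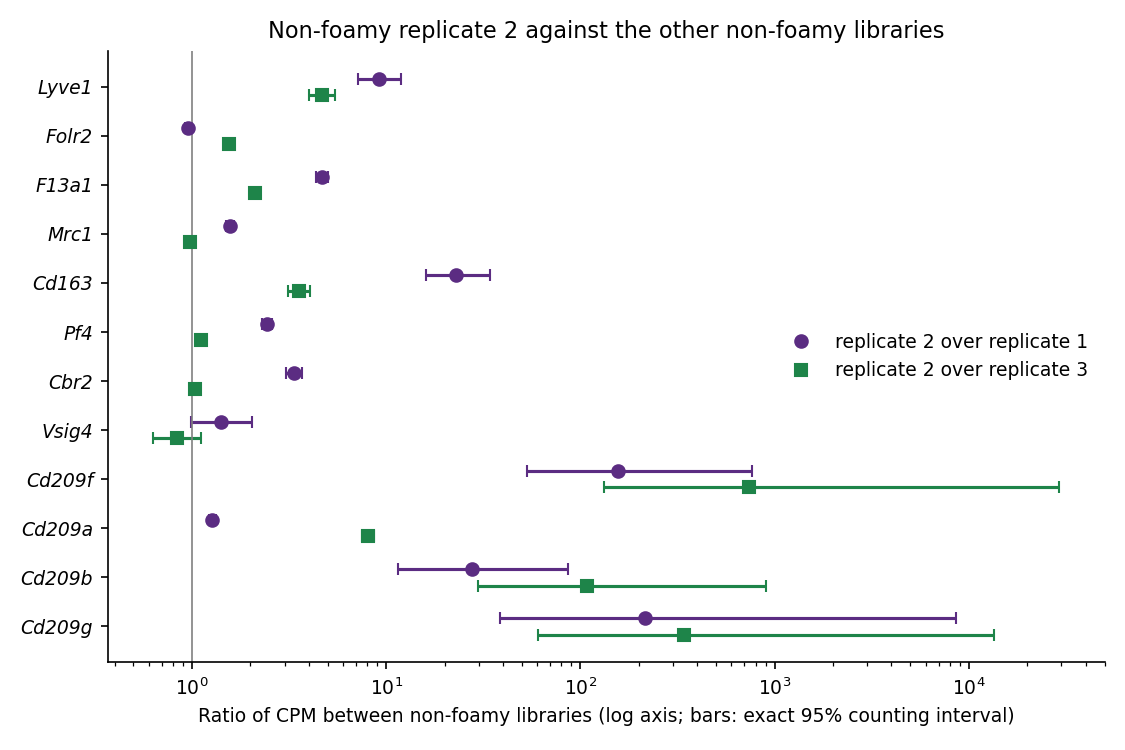
The x axis (log scale) gives the ratio of CPM in non-foamy replicate 2 to replicate 1 (purple circles) and to replicate 3 (green squares) for the 9 genes and for Cd209a, Cd209b and Cd209g, with exact 95% counting intervals as bars. The ratio to replicate 1 is 0.957 for Folr2, 9.19 for Lyve1, 23.0 for Cd163 and 157 for Cd209f, and the ratio to replicate 3 is close to 1 for Mrc1, Pf4 and Cbr2.

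A wider list of 35 genes known from resident-type macrophages, none of them among the 9, moved in both directions. It too was chosen with earlier results of these data known. Of 30 tested, 6 were called lower, 2 higher and 22 not, where 2.90% of all genes tested were called lower and 2.50% higher. The median log2 fold change of the list was -0.40, against -0.04 over all tested genes. Without non-foamy replicate 2, 2 were called lower, Hpgd and Gpr34, and the same 2 higher. The genes that fell included Hpgd, which breaks down prostaglandins, at 12.0 ± 5.69 CPM in foamy libraries, against 122 ± 53.9 CPM in the non-foamy ones (SD, n = 3 each; log2 fold change -3.10, SE 0.44, edgeR adjusted p = 0.0023). Gpr34, a receptor for lysophosphatidylserine, stood at 22.0 to 29.5 CPM in foamy libraries, against 82.4 to 121 CPM in the non-foamy ones (log2 fold change -1.85, edgeR adjusted p = 0.0026).

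Other genes that fell lost their call without non-foamy replicate 2. Among them were the chemokine gene Ccl24 (log2 fold change -5.45, and -4.69 without that library), the lectin gene Clec10a (-3.06 and -2.61) and Gatm, an enzyme of creatine synthesis (-0.79 and -0.76). Gatm also lost it without any 1 foamy library or non-foamy replicate 3, and Clec10a without foamy replicate 2 or 3. The 2 genes that rose were Cd5l and Mertk. Cd5l, a secreted scavenger-type protein known from liver and splenic macrophages, stood at 509, 1026 and 1032 CPM in foamy replicates 1 to 3 and at 151, 86.2 and 116 CPM in non-foamy replicates 1 to 3 (log2 fold change 3.13, SE 0.28, edgeR adjusted p = 1.3e-04). Mertk, a receptor for dying cells, stood at 72.4 to 134 CPM in foamy libraries, against 43.1 to 50.9 CPM in the non-foamy ones (log2 fold change 1.37, edgeR adjusted p = 0.0074). With total counts as the only scaling these genes kept their direction.

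Among genes not called, Maf, which encodes a transcription factor of resident macrophages, averaged 74.8 ± 19.9 CPM in foamy libraries, against 156 ± 43.3 CPM in the non-foamy ones (SD, n = 3 each; log2 fold change -0.83, edgeR adjusted p = 0.12). Igf1, a growth factor gene of the same macrophages, averaged 1467 ± 65.2 CPM in foamy libraries, against 1341 ± 80.1 CPM in the non-foamy ones (log2 fold change 0.39, edgeR adjusted p = 0.22). Timd4, a phosphatidylserine receptor known from embryonically derived macrophages, had 0 to 0.124 CPM in foamy libraries, against 0.162 to 2.69 CPM in the non-foamy ones, and was not tested.

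**Figure D4:**
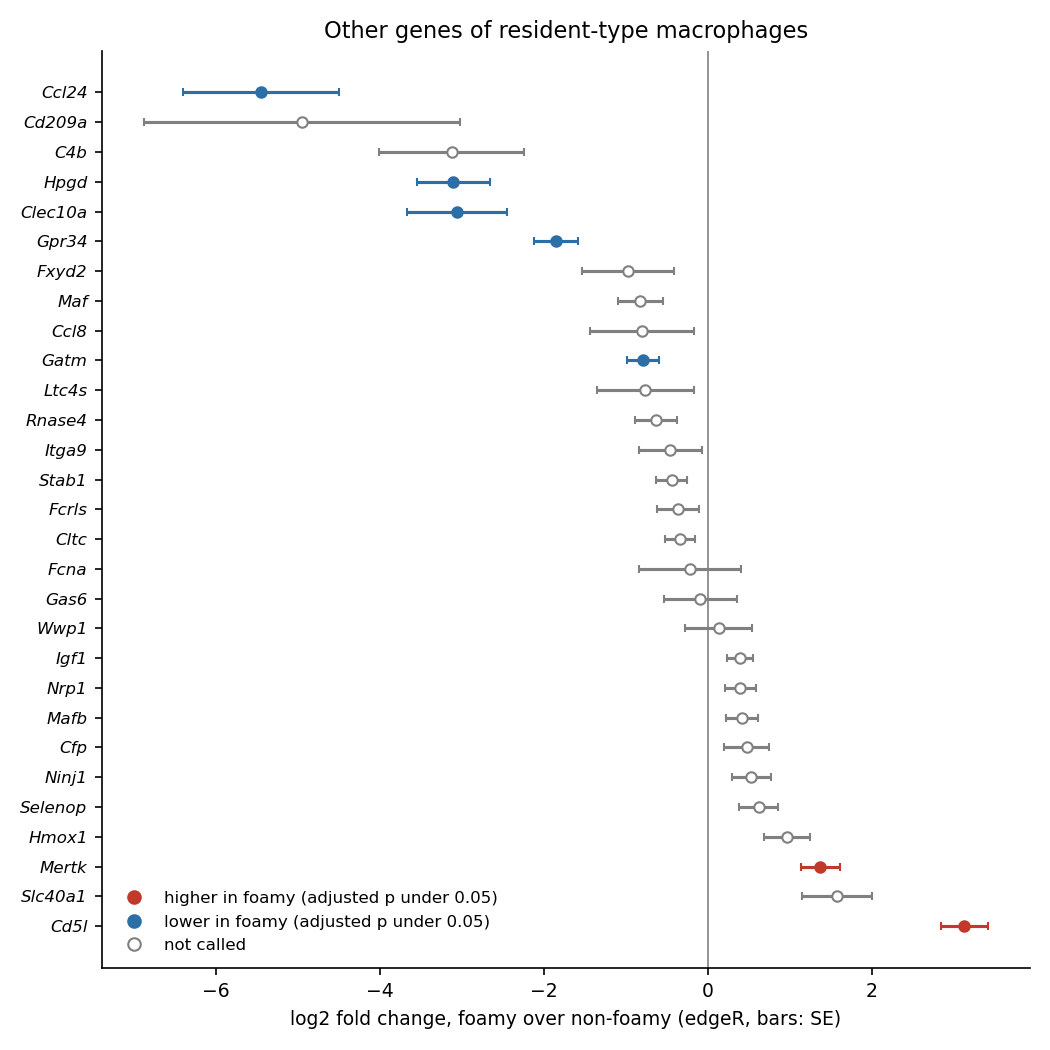
The x axis gives the log2 fold change, foamy over non-foamy, with its SE for all but 1 of the 30 tested genes of the wider list, in red where higher and in blue where lower at an edgeR adjusted p under 0.05. Cd5l lies farthest to the right at 3.13 and Ccl24 farthest to the left at -5.45, and the 22 genes not called are open grey points.

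The genes whose pattern over the 6 libraries came closest to the mean of the 8 tested markers were Clec4a1, Creb5, Alox5, Clec10a, Ier2 and Ccl2. Closeness was the root mean square difference of centred log2(CPM + 1) profiles, with TMM factors, among 6104 genes with a mean of at least 10 CPM, and it ran from 0.23 to 0.33 for these genes. The 8 markers themselves lay 0.45 to 1.44 from their own mean, with Mrc1 nearest and Folr2 farthest. Ier2 is an immediate early gene, and Ccl2 encodes a chemokine that attracts monocytes. Clec4a1, a C-type lectin receptor gene of myeloid cells, stood at 32.4, 38.7 and 33.0 CPM in foamy replicates 1 to 3 and at 129, 261 and 206 CPM in non-foamy replicates 1 to 3. Alox5, which encodes 5-lipoxygenase of leukotriene synthesis, stood at 2.92, 2.53 and 1.11 CPM in the foamy replicates, against 10.4, 42.5 and 18.8 CPM in the non-foamy replicates.

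Monocyte markers differed between the same libraries. Of 18, 16 were tested, and 8 were called lower (5 without non-foamy replicate 2) and none higher. Among all genes tested, 2.90% were called lower, or 1.58% without that library, which gives scale for this list and those below. The monocyte list summed to 478 to 563 CPM in foamy libraries, against 1311 to 1505 CPM in the non-foamy ones. Fcgr4, the most abundant of the list, was not called. Without it the sum was 183 to 267 CPM in foamy samples and 1008 to 1384 CPM in non-foamy samples. The gene of the receptor that draws monocytes into tissue, Ccr2, had a log2 fold change of -5.87 (edgeR adjusted p = 6.1e-05). Within the non-foamy libraries Ccr2 stood at 285, 346 and 215 CPM in replicates 1 to 3. Immediate early and heat shock genes, which digestion can induce, also differed: 13 of 18 tested were called lower (9 without non-foamy replicate 2) and none higher. This list summed to 2374 to 2633 CPM in foamy libraries, against 6525 to 8428 CPM in the non-foamy ones. The part of either in the fall of F13a1 and the other markers was not tested.

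Genes of alternatively activated macrophages, which share Mrc1 as a marker, had 7 of 13 tested members called lower and none higher in foamy libraries. Of all genes tested, 2.90% were called lower. The number called lower was 3 without non-foamy replicate 2. Among the 7, Ccl17, Ccl22 and Ccl24 were at no more than 0.194 CPM in any foamy library. Their entry into the test thus rested on the non-foamy libraries. So did that of Mgl2, also among the 7, at 0.291 CPM in foamy replicate 3. The same held for the monocyte markers Ly6c2, Plac8 and Vcan, and for Klrd1, Ppbp, Serpinf1 and S100a9 in the lists below. Retnla, a secreted protein induced by interleukin-4, stood at 2.10, 1.51 and 0.969 CPM in foamy replicates 1 to 3 and at 13.2, 30.8 and 32.4 CPM in non-foamy replicates 1 to 3 (log2 fold change -3.81, edgeR adjusted p = 0.0020). Dendritic cell markers had 2 of 8 tested members called lower, Mgl2 and Klrd1, and none higher. Some genes stood in more than 1 list. Mgl2 was also among the 7 above, and Cd209a, Clec10a, Ccl24 and the macrophage gene Mertk were also in the wider list. Nr4a1, called lower, was in both the monocyte and the immediate early lists. Chil3 was in the monocyte and alternative activation lists, and Egr2 in the alternative activation and immediate early lists. Thy1 was in the T cell and lymphatic endothelial lists. Zbtb46, Xcr1, Clec9a and Itgae were not tested, at no more than 1.98 CPM. Flt3, also untested, reached 6.01 CPM in non-foamy replicate 1, and Batf3 was not called (log2 fold change -0.02). The dendritic cell list summed to 340 to 497 CPM in foamy libraries, against 598 to 938 CPM in the non-foamy ones. Without Sirpa, which macrophages also express, it was 23.0 to 37.6 CPM in foamy samples and 313 to 679 CPM in non-foamy samples, most of it Mgl2 and Cd209a. The part of dendritic cells in the Mrc1 values was not tested.

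Lymphatic endothelium and platelets, which share Lyve1 and Pf4, were low by most of their genes. The 8 lymphatic endothelial genes summed to 0.145 to 0.592 CPM in foamy libraries, against 1.06 to 3.97 CPM in the non-foamy ones, none passed the filter for testing, and Pdpn and Ccl21a were at 0 in all 6 libraries. The part of lymphatic endothelium in the Lyve1 values was not tested. Among 12 platelet and megakaryocyte genes, 3 were tested, and their sum was 18.9 to 52.6 CPM in foamy libraries, against 15.0 to 23.9 CPM in the non-foamy ones, with Gp6 at 0 in all libraries and Gp9 at no more than 0.0412 CPM. Clec1b, a platelet receptor gene also known from macrophages, was called higher. Without it the sum was 1.52 to 4.79 CPM in foamy samples and 9.02 to 20.6 CPM in non-foamy samples. This was not a fall across the list. Itgb3 went the other way, at 0.92 to 3.01 CPM in foamy libraries, against 0.0406 to 0.384 CPM in the non-foamy ones. It was not called (log2 fold change 3.74, edgeR adjusted p = 0.11). In non-foamy replicates 2 and 3, most of the sum without Clec1b was Ppbp alone. Ppbp, a chemokine gene of platelets, was called lower, with a log2 fold change of -5.88 (0 to 0.430 CPM in foamy libraries, against 2.75 to 19.5 CPM in the non-foamy ones). Its call was lost without foamy replicate 3 or non-foamy replicate 3, and leaving out 1 library at a time gave values from -7.56 to -5.20. The part of platelet RNA in the Pf4 values was not tested.

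Summed fibroblast genes differed widely among libraries of the same gate, at 5.93, 3.23 and 155 CPM in the foamy replicates, against 155, 19.2 and 326 CPM in the non-foamy replicates. Of 11, 6 were tested and 1, Serpinf1, was called lower (log2 fold change -5.31). Its call was lost without non-foamy replicate 2 (-5.44), non-foamy replicate 3 or any 1 foamy library. Non-foamy replicate 2 was the library highest in Lyve1 and Cd163. Its fibroblast sum was the lowest of the 3 non-foamy libraries, with or without Dcn, the most abundant gene of the list. Pi16 and Dpt, both untested, were instead the highest of the 3 there, at 1.90 and 0.712 CPM. Serpinf1 stood at 3.80 CPM there, against 0.832 and 9.02 CPM in non-foamy replicates 1 and 3. Endothelial and smooth muscle lists had no called gene among 3 and 6 tested, with sums of 10.1 to 13.7 and 5.89 to 33.7 CPM in foamy and 16.5 to 21.6 and 10.6 to 43.6 CPM in non-foamy libraries. Of the T cell genes, 2 of 4 tested were called higher, Il7r and Cd4. The Cd4 call depended on foamy replicates 2 and 3 and on non-foamy replicate 1, as dropping any 1 of these ended it. Il7r stayed called whichever library was dropped. Il7r made up most of the list's sum, which without it was 23.6 to 41.9 CPM in foamy samples and 3.01 to 25.1 CPM in non-foamy samples. Cd3e was at no more than 0.0593 CPM in any library. Of the B cell genes, Ighm was called lower and Cd22 higher among 3 tested, and the call of Cd22 was lost without foamy replicate 3. Without Ighm the list summed to 51.6 to 74.7 CPM in foamy samples and 21.9 to 49.3 CPM in non-foamy samples. Of 4 neutrophil genes tested, Mmp8 was called higher and S100a9 lower, and the call of S100a9 was lost without non-foamy replicate 2. Without Mmp8 the list summed to 14.3 to 23.8 CPM in foamy samples and 11.0 to 43.0 CPM in non-foamy samples. The part of these cells in the marker values was not tested.

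**Figure D5:**
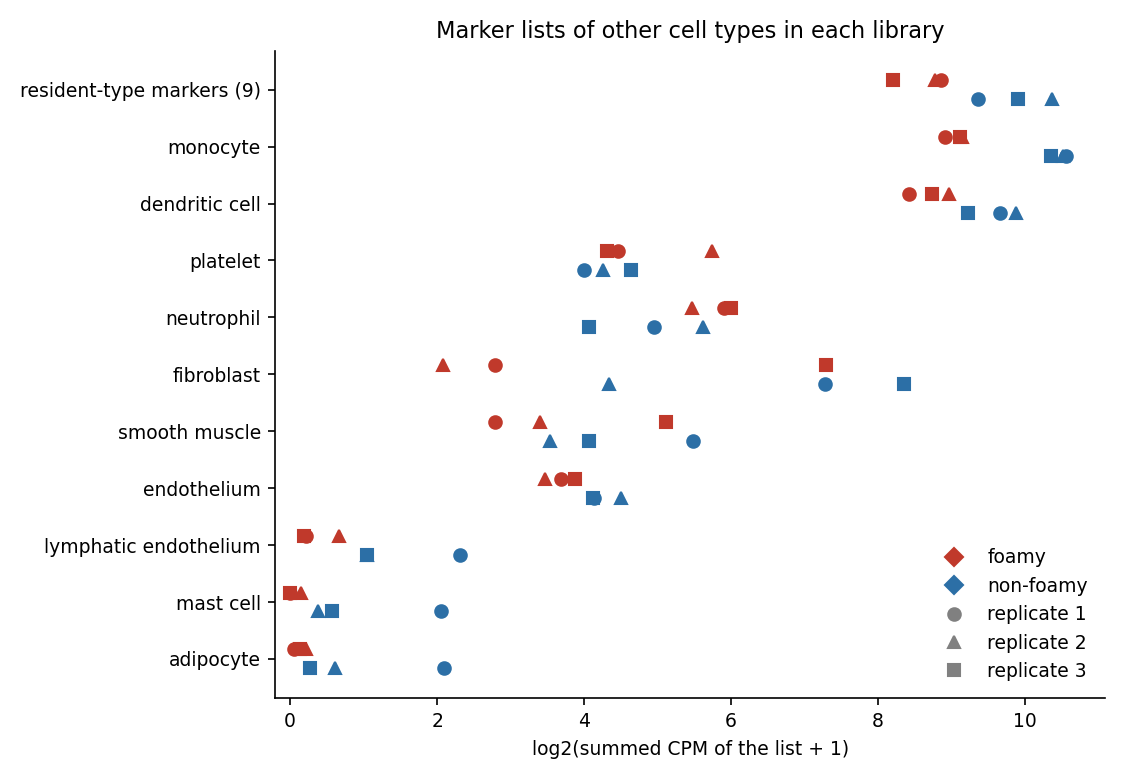
The x axis gives log2(summed CPM + 1) of each marker list in each library, foamy above (red) and non-foamy below (blue), with a symbol for each replicate number. The 9 resident-type markers sum to 295 to 464 CPM in foamy libraries, against 658 to 1322 CPM in the non-foamy ones. Without Folr2 their sum, not plotted, is 106 to 166 CPM in foamy and 389 to 1064 CPM in non-foamy libraries. The lymphatic endothelial, mast cell and adipocyte lists stay under 4 CPM in every library.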

How the data were processed

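RNA was measured by bulk RNA-seq in 3 foamy and 3 non-foamy libraries. Per the submitters' processing notes, STAR 2.0.4b, Subread and featureCounts 1.4.5 were used with GRCm38, and neither strandedness nor the handling of multi-mapping reads is stated there or in the labels, so values of near-identical, overlapping or antisense genes are uncertain. The deposited counts are whole reads per Ensembl gene, not normalized. The deposited CPM values are those counts scaled to a common total of counts in genes, and the deposited RPKM values are that CPM per kilobase of the listed length, both checked on every gene. No molecular identifiers are named in the labels' protocols, so intervals and the limit of 3 counts behind a count of 0 cover counting error only.

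The test was the robust quasi-likelihood F-test of edgeR 4.0.16 (R 4.3.3) after filterByExpr and TMM scaling. P-values of all 11303 tested genes were adjusted together by Benjamini and Hochberg's method, with calls at 0.05. Standard errors were obtained by dividing the absolute log2 fold change by the square root of F. The biological coefficient of variation was 0.51. The procedure was tested on simulated data. Symbols were found for 40254 of 41388 identifiers. Counting intervals are exact binomial (scipy 1.17.1). Similar genes, for the SD percentiles, had a mean in the same group within 0.5 log2 units. Sums of marker lists without their most abundant gene were added after the values were seen.

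The markers and the lists were chosen with earlier results of these data known. Named were the 9 markers, the 6 genes nearest to their mean pattern, up to 6 called genes of the wider list in each direction, up to 3 of each other list, the Cd209 family, and the gate and targeted genes. Maf, Igf1, Timd4, Serpinf1, Itgb3, Pi16, Dpt, Batf3, Flt3 and markers at or near 0 in either group were named after their values were seen. Of the wider list, 1 gene called lower is not reported here. The alternatives changed the scaling (RLE, upper quartile, total counts only), the filter (none, or at least 10 counts in 3 libraries with at least 5 CPM on average), or the tool (DESeq2 1.42.0, limma-voom of limma 3.58.1). Others added the replicate number as a block, dropped mitochondrial and ribosomal protein genes, tested for more than 1.5-fold, or left out 1 library.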

Additional observations from a re-analysis of the deposited data

How the results depend on the processing

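None of the 8 tested markers changed direction, and none was called higher, under any of the 16 alternatives that gave it a value. F13a1, Mrc1 and Cbr2 stayed called under all 16, Lyve1 and Cd163 under all but limma-voom, which called 3 markers lower instead of 6, and Pf4 under 8. Leaving out 1 library at a time gave 5 to 6 markers called lower. The number of genes called, 611 in all, was 1173 with DESeq2, 276 against a 1.5-fold change, 391 with the replicate block and 271 to 579 with 1 library left out. Same-numbered foamy and non-foamy libraries did not deviate together (correlations of -0.07, -0.02 and -0.03 for replicates 1 to 3). No library correlated best with its own number. With the block, 5 markers were called lower, all but Pf4. In the wider list, genes called higher, 2 in all, numbered 5 without a filter and 4 with the stricter filter or DESeq2. Genes called lower, 6 in all, numbered 2 to 9 with 1 library left out, and the lowest number was without non-foamy replicate 2. The group difference of Cd209f, -6.28 as a log2 ratio of means, was 0.16 without non-foamy replicate 2. Without a filter the median log2 fold change of all genes was -0.66, against -0.04. The cause was not tested. Depth limits what can be said of Lyve1, Cd163 and Cd209f in foamy libraries, at 2 to 6 counts each, and of Vsig4, which the stricter filter removed.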

Other observations

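Non-foamy replicates 1 and 2 each held transcripts of other leukocyte genes that were lower in the remaining libraries. These genes stand in the marker lists and were picked with their values in view. In non-foamy replicate 2, several were high. Cd2, an adhesion receptor of lymphocytes, stood at 1.65, 4.63 and 0.194 CPM in foamy and at 0.0640, 17.0 and 0.0812 CPM in non-foamy replicates 1 to 3. The neutrophil and monocyte genes S100a8 and S100a9 stood at 16.2 and 18.3 CPM in that library, and at no more than 4.35 and 3.71 CPM in any other. The T cell receptor complex genes Cd3e, Cd3g and Cd3d were at no more than 0.0593 CPM in it. In non-foamy replicate 1, the dendritic and T cell gene Dpp4 stood at 16.8 CPM, against at most 3.53 CPM in any other library, the chemokine receptor gene Ccr7 at 13.5 CPM, against at most 3.14 CPM, and the B cell gene Ms4a1 at 8.96 CPM, against at most 0.329 CPM.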
